A study of Mus musculus with 32 samples.

Results

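The genes described are 10 members of the bone morphogenetic protein (BMP) pathway in mouse quadriceps: the ligands Bmp2, Bmp4, Bmp5, Bmp6, Gdf5 and Gdf10, the receptors Bmpr1a and Bmpr2, and the target genes Id1 and Id3. They were found by gene name among 53801 gene IDs in the deposited expression tables. All 10 were present, and 8 of them reached a level of 1 TPM (the unit of a transcript level scaled for its length and for the library total) in at least 4 of 32 libraries, the level required of the 12817 genes tested. Gdf5 and Bmp2 did not. The animals were wild type (WT) or homozygous for the Col6a2 tm1(KOMP)Vlcg allele (Col6a2-/-), which affects the gene for the α2 chain of collagen VI, a filament-forming protein of the muscle matrix. Both genotypes were bred from heterozygous Col6a2+/- parents of a C57BL/6N-derived KOMP strain that had been backcrossed for 5 generations to C57BL/6J, and the allele is carried in every cell of the animal. Mice were 5 or 25 weeks old and female or male, which gives 8 groups of 4 mice with 1 library each. No treatment was applied. RNA came from 10 µm cryosections of snap-frozen quadriceps, so every cell type in the section contributed, and fewer cells of a type cannot be told apart from less RNA per cell.

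BMP ligands are secreted dimers that bring together type I and type II serine/threonine kinase receptors, such as the products of Bmpr1a and Bmpr2. The activated type I receptor phosphorylates Smad1, Smad5 and Smad9, which enter the nucleus with Smad4 and switch on genes such as Id1 and Id3. In adult skeletal muscle this branch is known to favour fibre size, acting against the myostatin and activin branch, and Gdf5 is known to be induced in muscle that has lost its nerve supply. Gdf10, also called BMP3B, is a divergent member of the ligand family.

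Col6a2 itself lay between 6.60 and 51.2 TPM in the 16 WT libraries and between 0 and 0.171 TPM in the 16 Col6a2-/- libraries. The tissue label fitted the markers: 8 of 8 mature myofibre genes were detected in every group, with summed levels of 25944 to 49723 TPM. The depth of the libraries, inferred from the ratio of deposited coverage to FPKM on a relative scale, ranged from 6.78 to 13.7 with a median of 8.95. Genes at 1 TPM or more numbered 10399 to 12877 per library. Mitochondrial and Rn7s transcripts took up most of each library, leaving 28.4% to 44.2% of TPM to all other genes. No 2 libraries were near-copies, the highest correlation between any pair being 0.984.

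On the TPM scale the members spanned a wide range of levels. Bmpr1a, the type I receptor also known as ALK3, was the highest, with a median of 17.4 TPM over the 32 libraries (range 12.6 to 27.3). Id3 followed at 10.3 TPM (5.63 to 18.6), then Bmpr2, the type II receptor, at 7.87 TPM (5.62 to 13.9) and Id1 at 7.10 TPM (1.62 to 12.7). The ranges of Id3, Bmpr2 and Id1 overlapped over most of their length, so the order among these neighbours lay within their spread. Bmp5 was the highest ligand at 4.61 TPM (2.60 to 7.51). Bmp6 at 1.86 TPM (1.07 to 2.80) and Bmp4 at 1.82 TPM (1.06 to 3.57) had nearly the same median. Gdf10 lay at 1.08 TPM (0.454 to 2.19) and reached 1 TPM in 18 libraries. Bmp2 lay at 0.398 TPM (0.149 to 0.760) and Gdf5 at 0.0345 TPM (0 to 0.532), and neither reached 1 TPM in any library.

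**Figure D1:**
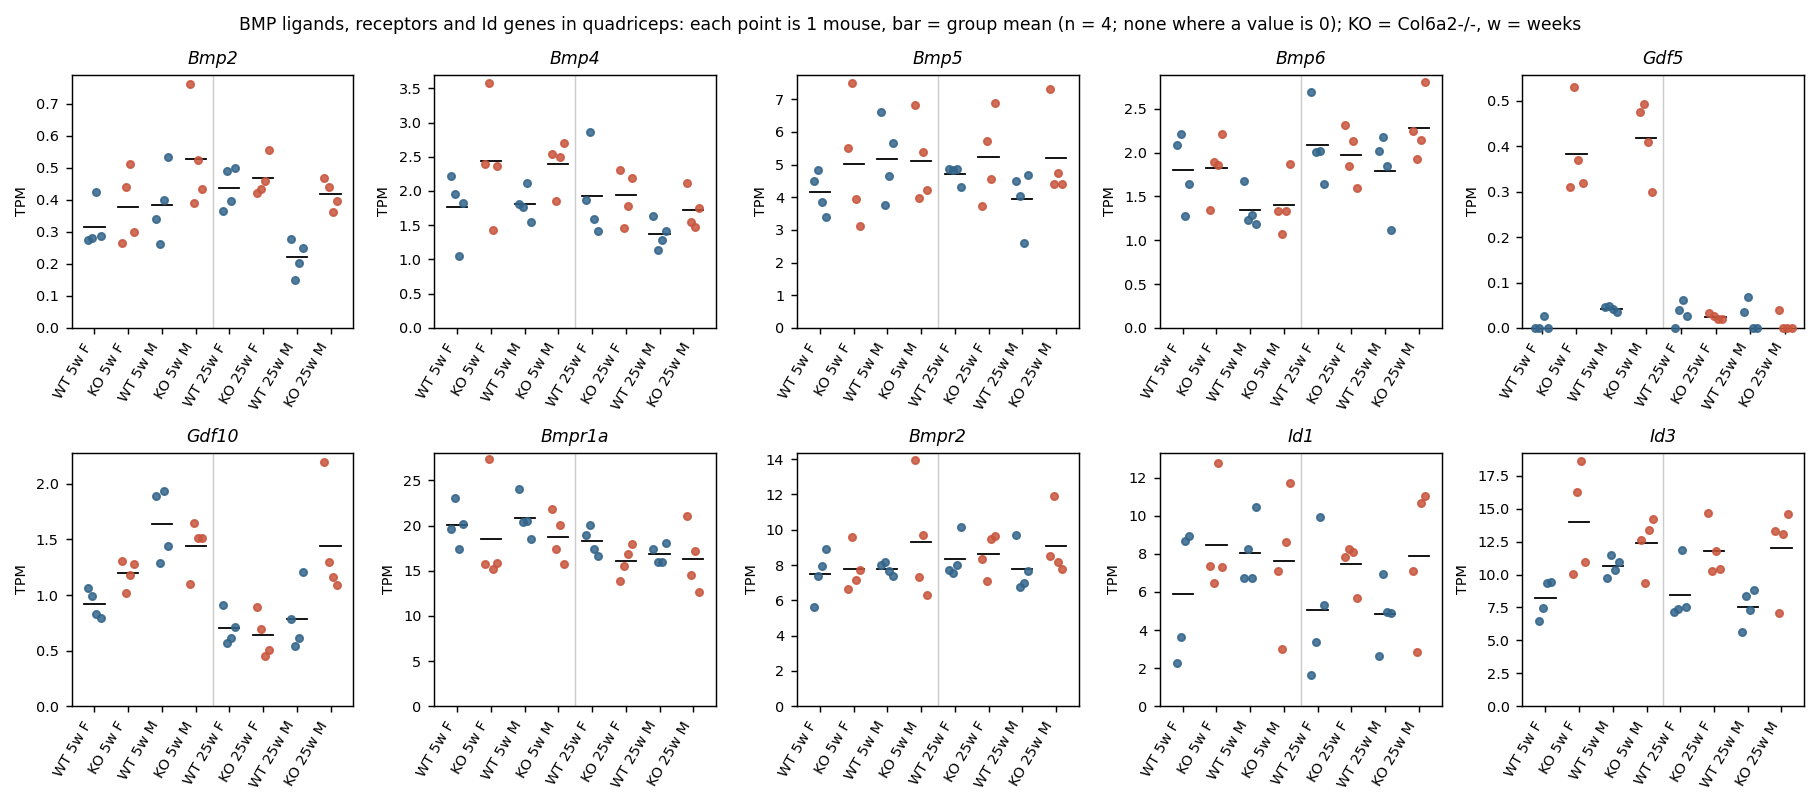
TPM (vertical axis, linear from 0) of each of the 10 members in the 8 groups, 1 point per mouse, with WT in blue, Col6a2-/- in red and a bar at the mean of 4 mice where no value is 0. Gdf5 stands at 0.299 to 0.532 TPM in the Col6a2-/- mice of 5 weeks and at no more than 0.0685 TPM in all other groups. For every other member the genotypes overlap at each age when both sexes are pooled.

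The level of Bmp6 is less certain than its TPM value makes it look. For genes with a single annotated transcript (Bmp2, Gdf5 and Gdf10) the deposited coverage divided by FPKM and by library depth lay between 0.999 and 1 after rounding. For Bmp6 this quotient was 0.0418 to 0.0455, against 0.604 to 0.950 for the other members with several transcripts. Its median coverage was 0.560 reads per base, below the 2.86 of Bmp2, although its median TPM was higher. Bmp6 has 3 annotated transcripts of 594 to 3593 bases, and how the authors' tool shared its reads among them was not tested. On a coverage scale Bmp6 fell below the filter and could not be tested.

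**Figure D2:**
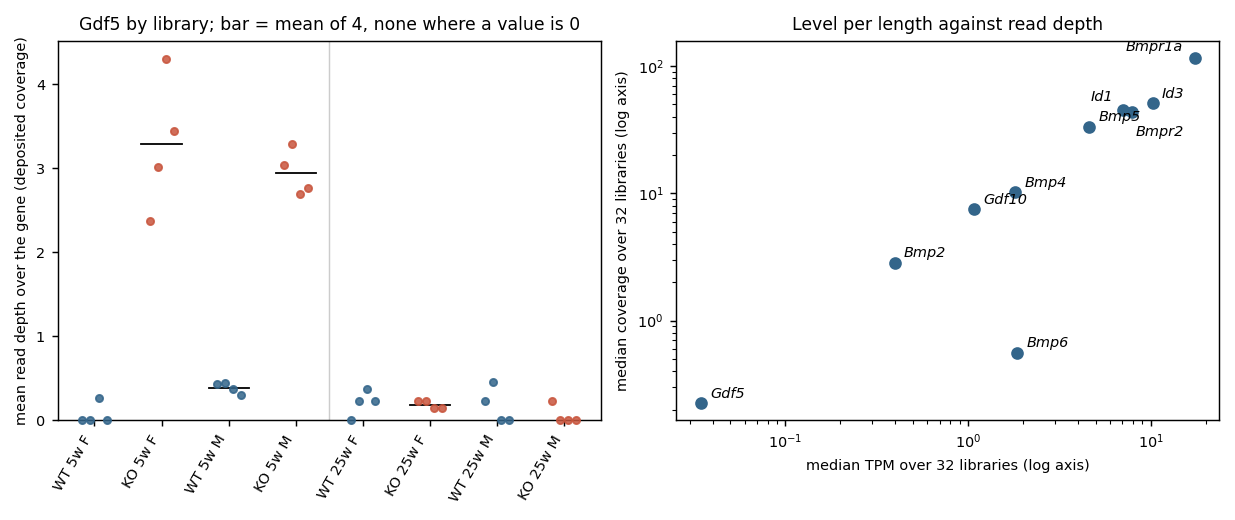
Left, deposited mean read depth over Gdf5 in each library by group, WT in blue and Col6a2-/- in red, with a bar at the mean of 4 mice where no value is 0. Right, median coverage against median TPM over the 32 libraries for the 10 members, both axes logarithmic; Bmp6 lies far under the line formed by the other members.

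Among the ligands, Gdf5 (ENSMUSG00000038259, GRCm38 chr2:155941023-155945367, minus strand) was the member whose genotypes separated without overlap, at 5 weeks. In WT females of 5 weeks it was listed at 0 in 3 libraries and at 0.0267 TPM in the remaining one, and in WT males at 0.0345, 0.0421, 0.0452 and 0.0486 TPM. In Col6a2-/- females of 5 weeks it stood at 0.310, 0.319, 0.370 and 0.532 TPM, and in males at 0.299, 0.410, 0.475 and 0.493 TPM. All 8 Col6a2-/- libraries of that age therefore lay above all 8 WT libraries. Of the 32958 genes above 0 in any library, 0.953% separated without overlap in that comparison (0.895% upwards), and Gdf5 was the 1 member of 10 that did. At 25 weeks the WT libraries ran from 0 to 0.0685 TPM with 3 of 8 at 0, and the Col6a2-/- libraries from 0 to 0.0404 TPM with 3 of 8 at 0. The genotypes overlapped fully at that age, where 0.328% of genes separated.

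The read depth behind these values was low. Mean coverage of Gdf5 was 2.37 to 4.31 reads per base in the Col6a2-/- mice of 5 weeks, 0 to 0.449 in WT mice of that age, 0 to 0.45 in WT mice of 25 weeks and 0 to 0.225 in Col6a2-/- mice of 25 weeks. Since Gdf5 missed the filter, its tests come from a limma fit over all 32958 genes, on log2(TPM + 1). There it was 0.45 higher in Col6a2-/- at 5 weeks (SE 0.0268, limma adjusted p = 2.1e-11), and -0.016 apart at 25 weeks (adjusted p = 0.915). The genotype difference itself changed with age by -0.46 (SE 0.0379, limma adjusted p = 4.2e-08). Within Col6a2-/- mice Gdf5 fell by 0.46 from 5 to 25 weeks (limma adjusted p = 1.4e-11), and within WT mice it moved by 0.0056 (adjusted p = 1). In that fit 11.2% of genes passed for genotype at 5 weeks, 1.04% for genotype at 25 weeks, 7.79% for age in WT, 0.349% for the change of the genotype difference with age, and 16.8% for age in Col6a2-/-. These log2 differences understate the proportional change of so low a gene: with a pseudocount of 0.1 the difference at 5 weeks was 2.01. The 3 calls held in all 32 fits that left out 1 library.

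Some marker groups also differed between the genotypes. Of 7 tested genes known to rise in denervated fibres, 7 were higher in Col6a2-/- at 5 weeks and 1 at 25 weeks, against 23.2% and 4.47% of all genes called higher. The summed level of these 7 (Chrna1, Chrng, Chrnd, Musk, Myog, Ncam1 and Runx1) was 9.18 to 19.8 TPM in WT and 24.4 to 66.7 TPM in Col6a2-/- mice of 5 weeks. At 25 weeks it was 8.05 to 12.6 TPM in WT and 9.95 to 18.2 TPM in Col6a2-/-. One of the 7 was at 0 in all WT males of 25 weeks. Satellite cell and myoblast markers were higher in 3 of 4 at 5 weeks and 1 of 4 at 25 weeks, with sums of 7.65 to 11.1 TPM in WT and 7.68 to 17.1 TPM in Col6a2-/- mice of 5 weeks. Fibro-adipogenic markers were higher in 6 of 10 at 5 weeks and 5 of 10 at 25 weeks, and endothelial markers in 5 of 10 and 0 of 10. Mature myofibre genes were lower in 4 of 8 at 5 weeks, against 2.14% of all genes, and in 0 at 25 weeks. Macrophage markers were higher in 8 of 8 at 5 weeks and in 7 of 8 at 25 weeks. Pericyte and vascular smooth muscle markers were higher in 2 of 8 and 0 of 8. Of 6 tenocyte, 5 Schwann cell, 6 adipocyte and 5 erythrocyte markers tested, 0 were called at either age. These marker counts are on TPM. For the change of the genotype difference with age, 4 of the 7 denervation genes passed with a negative change, against 0.492% of all genes called. In that test 0 satellite cell, fibro-adipogenic, endothelial, mature myofibre and macrophage markers were called. The part of these cells and fibre states in the Gdf5 difference was not tested. An antisense gene model, Gm15557, overlaps Gdf5 and was listed at 0 in all 32 libraries.

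Gdf10 (ENSMUSG00000021943, chr14:33923587-33937983, plus strand) differed with age in WT mice and between the sexes, and passed no genotype test. In WT mice it fell from 1.28 ± 0.447 TPM at 5 weeks to 0.745 ± 0.224 TPM at 25 weeks (mean ± SD, n = 8), a log2 change of -0.37 (SE 0.0895, limma adjusted p = 0.00381). It was 1 of 8 tested members called for age in WT, where 19.8% of all genes were called (15.3% downwards). The 4 WT males of 5 weeks stood at 1.29, 1.44, 1.89 and 1.93 TPM, above all WT libraries of 25 weeks, whose highest was 1.21. WT females overlapped between the ages, at 0.790, 0.830, 0.988 and 1.06 TPM at 5 weeks and 0.570, 0.611, 0.712 and 0.913 TPM at 25 weeks. Under quantile normalization the change in WT was -0.25 and missed the threshold (limma adjusted p = 0.0507). In Col6a2-/- mice the means were 1.32 ± 0.221 TPM and 1.04 ± 0.558 TPM (n = 8), and the difference of -0.22 missed the threshold (SE 0.0895, limma adjusted p = 0.0522). It passed with a pseudocount of 0.1 (adjusted p = 0.0332), array weights (0.00426) or coverage (0.0365), with the replicate block (0.0452), and without any of 5 libraries: WT male 4 of 25 weeks (0.0400), Col6a2-/- female 2 (0.0487) or male 1 (0.0346) of 5 weeks, and Col6a2-/- female 1 (0.0304) or male 1 (0.00689) of 25 weeks. The difference between these 2 age changes was 0.15 (SE 0.127) and did not pass either (adjusted p = 0.944).

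The same ligand was higher in males than in females. The 16 females ran from 0.454 to 1.31 TPM with a median of 0.861, and the 16 males from 0.545 to 2.19 TPM with a median of 1.29, so the sexes overlapped. The difference of males minus females was 0.31 on the log2 scale (SE 0.0633, limma adjusted p = 0.00387). Gdf10 was the 1 of 8 tested members called for sex, against 3.05% of all genes (1.87% higher in males). Its genotype difference was 0.043 at 5 weeks (SE 0.0895, adjusted p = 0.742) and 0.19 at 25 weeks (SE 0.0895, limma adjusted p = 0.242). The 4 Col6a2-/- males of 25 weeks spread from 1.09 to 2.19 TPM and the 4 females from 0.454 to 0.891 TPM. In WT mice of 25 weeks the sexes interleaved, with males at 0.545, 0.617, 0.784 and 1.21 TPM and females at 0.570 to 0.913 TPM. At 5 weeks it was the WT sexes that did not overlap, with females at 0.790 to 1.06 TPM and males at 1.29 to 1.93 TPM. Col6a2-/- females at 1.01 to 1.31 TPM and males at 1.10 to 1.65 TPM overlapped at that age. How many of all genes separate between the sexes in such sets of 4 mice was not counted, so neither gap can be set against a share. Averaged over both ages, the sex difference did not differ between the genotypes by a called amount (genotype by sex 0.097, SE 0.127, limma unadjusted p = 0.451). Genotype by sex was not tested within an age. An average over the ages cannot show a pattern that runs in opposite directions at 5 and 25 weeks.

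Promoter windows of 7 of the 10 members, the 250 bases before the start site, were matched by symbol in a RefSeq table (GRCm38.p6). Bmp2, Gdf5 and Id1 were not among them. Searched on both strands, with overlaps counted, the Smad-binding letters GTCT occurred in 82.9% of 32851 such windows, the GC-rich BMP response letters GGCGCC in 9.59%, the E-box CANNTG in 66.2% and the GC box GGGCGG in 32.7%. Bmpr1a and Bmpr2 each held 1 GGCGCC, and Bmp4, Bmp5, Bmp6, Gdf10 and Id3 held none. Gdf10 is shown because it was the member called for both age and sex; its window held 3 GTCT and 4 GGGCGG matches, in capitals on either strand. Id3 had 2 GTCT matches, of which the 30 bases around 1 are shown. The start that RefSeq gives Id3 lies downstream of the first base of the gene span given for it further on, so this site lies inside that span. These matches describe letters and not occupied sites.
Gdf10 promoter, chr14:33923337-33923586, plus strand: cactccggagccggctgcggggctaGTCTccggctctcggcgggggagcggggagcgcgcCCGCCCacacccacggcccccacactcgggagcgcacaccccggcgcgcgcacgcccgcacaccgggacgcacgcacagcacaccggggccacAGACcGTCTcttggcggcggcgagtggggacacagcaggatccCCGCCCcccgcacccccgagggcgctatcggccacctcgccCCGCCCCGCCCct
Id3 site, chr4:136143643-136143672, plus strand: tgtcctcggcgtcAGACcagcctaaggaag

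Bmp4 (ENSMUSG00000021835, chr14:46383520-46390669, minus strand), the closest relative of Bmp2, had a higher mean in Col6a2-/- mice of 5 weeks and missed the threshold. WT libraries of 5 weeks ran from 1.06 to 2.22 TPM with a median of 1.82, and Col6a2-/- libraries from 1.43 to 3.57 TPM with a median of 2.45. The groups overlapped, although 6 of the 8 Col6a2-/- libraries lay above every WT library. The difference was 0.29 (SE 0.112, limma adjusted p = 0.0604). It was called when any of 4 libraries was left out: WT female replicate 1 of 5 weeks (adjusted p = 0.0459), WT female replicate 2 of 25 weeks (0.0461), Col6a2-/- female replicate 3 of 5 weeks (0.0147) or Col6a2-/- male replicate 2 of 5 weeks (0.0396). Under median-of-ratios scaling it shrank to 0.14 (adjusted p = 0.317), and under quantile normalization to 0.095 (adjusted p = 0.530). At 25 weeks the means were 1.65 ± 0.538 TPM in WT and 1.83 ± 0.337 TPM in Col6a2-/- (n = 8), a difference of 0.11 (SE 0.112, limma adjusted p = 0.639).

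Bmp5 (chr9:75775364-75900310, plus strand), a ligand of the BMP7 subgroup, showed no called difference. Its means were 4.66 ± 1.06 and 5.06 ± 1.52 TPM in WT and Col6a2-/- mice of 5 weeks, and 4.33 ± 0.759 and 5.22 ± 1.29 TPM at 25 weeks (n = 8 each). The genotype differences were 0.081 (SE 0.141) and 0.21 (SE 0.141), with limma adjusted p of 0.694 and 0.431. The gene whose profile was most like that of Bmp5 over the 32 libraries was Dcn, which encodes decorin, a proteoglycan of connective tissue (Pearson r = 0.870, given as a description). Of 10 fibro-adipogenic markers, a list that includes Dcn, 6 were higher in Col6a2-/- at 5 weeks and 5 at 25 weeks. Of all genes 23.2% and 4.47% were called higher.

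Bmp6 (chr13:38345107-38500302, plus strand), a ligand best known for control of hepcidin in the liver, rose with age in Col6a2-/- mice, from 1.61 ± 0.392 to 2.13 ± 0.359 TPM (mean ± SD, n = 8). The libraries of 5 weeks ran from 1.07 to 2.21 TPM and those of 25 weeks from 1.60 to 2.80 TPM, with overlap. The change was 0.26 (SE 0.0969, limma adjusted p = 0.0349), and Bmp6 was the 1 of 8 tested members called, against 34.2% of all genes (5.41% upwards). In WT mice the change was 0.19 (SE 0.0969, adjusted p = 0.176), from 1.57 ± 0.403 to 1.94 ± 0.447 TPM. The 2 age changes differed by 0.075 (SE 0.137, limma adjusted p = 0.975). The call was lost when any of 7 libraries was left out (Col6a2-/- of 5 weeks: female 1 and males 1, 2 and 3; Col6a2-/- of 25 weeks: females 1 and 3 and male 4), with adjusted p of 0.0577 to 0.0880. Without a filter it was lost as well (0.27, adjusted p = 0.0604, and 0.0627 with a pseudocount of 0.1). In WT the change was called under quantile normalization (0.31, limma adjusted p = 0.0427) and with array weights (0.27, 0.0125). The call also rests on the TPM level of Bmp6 described above. Genotype differences were 0.023 at 5 weeks and 0.098 at 25 weeks (SE 0.0969 each), and neither passed.

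Bmp2 (chr2:133552159-133562885, plus strand), a potent ligand of bone formation, stayed low throughout, at a coverage of 0.980 to 5.95 reads per base. Its means were 0.349 ± 0.0952 TPM in WT and 0.452 ± 0.154 TPM in Col6a2-/- mice of 5 weeks, and 0.329 ± 0.129 and 0.442 ± 0.0565 TPM at 25 weeks (n = 8 each). In the fit without a filter the genotype differences were 0.10 (SE 0.0484, limma adjusted p = 0.192) and 0.12 (SE 0.0484, adjusted p = 0.268). In males of 25 weeks the WT libraries lay between 0.149 and 0.278 TPM and the Col6a2-/- libraries between 0.363 and 0.468 TPM, without overlap. In the same 4 against 4 mice 7.68% of genes separated (7.25% upwards). The females of that age overlapped. Averaged over both ages, the genotype difference did not differ between the sexes by a called amount (0.13, SE 0.0684, limma adjusted p = 0.9999). At 25 weeks alone this was not tested.

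**Figure D3:**
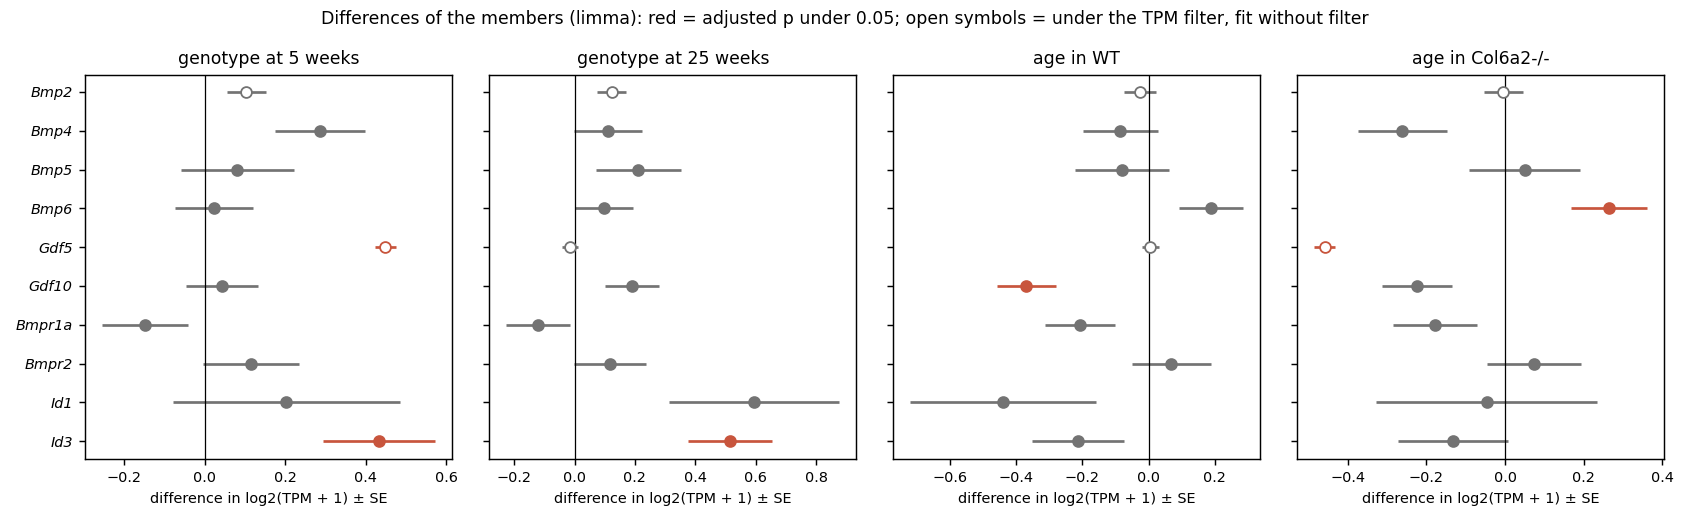
Difference in log2(TPM + 1) with its SE for each member (rows) in 4 comparisons: Col6a2-/- minus WT at 5 and at 25 weeks, and 25 minus 5 weeks in each genotype. Red marks an adjusted p under 0.05 and open symbols the fit without a filter for Bmp2 and Gdf5; Id3 is called in both genotype panels, at 0.43 and 0.51, and Gdf5 in the panel of 5 weeks and the age panel of Col6a2-/-.

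Neither receptor was called in any comparison on the TPM scale. Bmpr1a (ENSMUSG00000021796, chr14:34410734-34503341, minus strand) had means of 20.4 ± 2.19 TPM in WT and 18.6 ± 4.24 TPM in Col6a2-/- mice of 5 weeks, and of 17.5 ± 1.41 and 16.2 ± 2.67 TPM at 25 weeks (n = 8 each). At each age 4 of 8 Col6a2-/- libraries lay below every WT library and 1 lay above every WT library. The genotype differences were -0.15 (SE 0.107, limma adjusted p = 0.304) at 5 weeks and -0.12 (SE 0.107, adjusted p = 0.579) at 25 weeks. Over all tested genes the median genotype difference at 5 weeks was 0.15 on the log2(TPM + 1) scale. Bmpr1a thus lay at -0.29 relative to the median gene. When libraries were scaled so that most genes were level between them, by median-of-ratios, the difference at 5 weeks became -0.35 (limma adjusted p = 8.0e-05) and that at 25 weeks -0.25 (adjusted p = 0.00758). Quantile normalization gave -0.28 at 5 weeks (adjusted p = 0.00161) and -0.19 at 25 weeks, which missed the threshold (adjusted p = 0.0653). The genes most like Bmpr1a were Fxr1, for a muscle RNA-binding protein (r = 0.902), and Tmod1, for the actin-capping tropomodulin (r = 0.895).

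Bmpr2 (chr1:59763400-59879014, plus strand) lay at 7.64 ± 0.946 TPM in WT and 8.55 ± 2.52 TPM in Col6a2-/- mice of 5 weeks, and at 8.07 ± 1.22 and 8.87 ± 1.49 TPM at 25 weeks (n = 8 each). The differences were 0.11 and 0.12 (SE 0.120 each), with limma adjusted p of 0.491 and 0.632. The Col6a2-/- males of 5 weeks had the widest spread, from 6.29 to 13.9 TPM.

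The target gene Id3 (ENSMUSG00000007872, chr4:136143497-136145755, plus strand) encodes a helix-loop-helix protein that binds E proteins and keeps them off DNA, and was the tested member that passed for genotype. WT mice of 5 weeks stood at 6.46, 7.48, 9.36 and 9.45 TPM (females) and 9.72, 10.3, 10.9 and 11.5 TPM (males). Col6a2-/- mice of 5 weeks stood at 10.0, 10.9, 16.3 and 18.6 TPM (females) and 9.33, 12.6, 13.4 and 14.2 TPM (males). The genotypes overlapped, with 5 of 8 Col6a2-/- libraries above every WT library and 7 of 8 above the WT mean of their sex. The means were 9.40 ± 1.69 and 13.2 ± 3.17 TPM (n = 8), a ratio of 1.40 and a log2 difference of 0.43 (SE 0.140, limma adjusted p = 0.0240). Id3 was thus 1 of 8 tested members called at 5 weeks, where 25.4% of all genes were called (23.2% upwards), and it lay 0.29 above the median difference of all tested genes.

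At 25 weeks the WT libraries stood at 7.14, 7.40, 7.51 and 11.9 TPM (females) and 5.63, 7.30, 8.35 and 8.81 TPM (males). The Col6a2-/- libraries stood at 10.2, 10.4, 11.8 and 14.7 TPM (females) and 7.08, 13.1, 13.3 and 14.6 TPM (males). Again 7 of 8 Col6a2-/- libraries lay above the WT mean of their sex, with overlap through 1 high WT female and 1 low Col6a2-/- male. The means were 8.00 ± 1.82 and 11.9 ± 2.58 TPM (n = 8), a ratio of 1.49 and a log2 difference of 0.51 (SE 0.140, limma adjusted p = 0.0307). It was again 1 of 8 tested members called, against 4.70% of all genes (4.47% upwards), and lay 0.43 above the median gene. No change of the genotype difference with age was detected for Id3 (0.081, SE 0.198, limma adjusted p = 0.986).

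Both Id3 calls were near the threshold. At 5 weeks the call was lost without WT female replicate 1 (0.39, limma adjusted p = 0.0586), without Col6a2-/- female replicate 2 (0.39, 0.0601) or without Col6a2-/- female replicate 3 (0.36, 0.0583). At 25 weeks it was lost without any of 9 libraries: WT females 1, 2 and 4, WT males 1 and 3, Col6a2-/- female 1, and Col6a2-/- males 1, 3 and 4. The difference was then 0.46 to 0.51 with adjusted p of 0.0560 to 0.0831. Under median-of-ratios scaling the differences were 0.24 (limma adjusted p = 0.221) at 5 weeks and 0.39 (adjusted p = 0.0678) at 25 weeks, and under quantile normalization 0.28 (0.142) and 0.43 (0.0551). Array weights ended the call at 5 weeks (0.31, adjusted p = 0.0986), and scaling without mitochondrial and Rn7s genes that at 25 weeks (0.45, 0.0550). Without a filter both were missed (0.0504 and 0.0844). Endothelial cells are a known site of Id gene expression. Of 10 endothelial markers 5 were higher in Col6a2-/- at 5 weeks, with summed levels of 89.3 to 160 TPM in WT and 103 to 177 TPM in Col6a2-/-. At 25 weeks 0 of 10 were called by limma, and the sums were 88.4 to 123 TPM and 98.2 to 126 TPM. The median difference of the 10 was 0.24 at 5 weeks and 0.14 at 25 weeks, against 0.15 and 0.082 over all tested genes. For the change of the genotype difference with age 0 of 10 were called, against 0.492% of all genes, so no difference between the ages was shown. Some markers of other cell types were higher as well, where 23.2% of all genes were called higher at 5 weeks and 4.47% at 25 weeks. Of 8 macrophage markers 8 were higher at 5 weeks and 7 at 25 weeks, with sums of 61.3 to 103 TPM in WT and 99.2 to 344 TPM in Col6a2-/- at 5 weeks, and of 41.3 to 113 and 109 to 205 TPM at 25 weeks. Of 10 fibro-adipogenic markers 6 were higher at 5 weeks and 5 at 25 weeks, with sums of 677 to 1539 and 612 to 2110 TPM at 5 weeks, and of 309 to 568 and 512 to 830 TPM at 25 weeks. No marker of these 3 lists was at 0 in any group, and the part of these cells in the Id3 difference was not tested.

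Id1 (ENSMUSG00000042745, chr2:152736251-152737410, plus strand), the other Id member, varied widely. Its coefficient of variation over the 32 libraries was 42.1%, against 40.0% for Gdf10 and 28.9% for Id3, pooled over groups whose means differ. Its means were 6.95 ± 2.78 TPM in WT and 8.04 ± 3.06 TPM in Col6a2-/- mice of 5 weeks, and 4.96 ± 2.62 and 7.69 ± 2.63 TPM at 25 weeks (n = 8 each). WT libraries of 25 weeks ran from 1.62 to 9.93 TPM and Col6a2-/- libraries from 2.84 to 11 TPM, with overlap. At 25 weeks 7 of 8 Col6a2-/- libraries were above the WT mean of their sex. The log2 differences were 0.20 (SE 0.282, limma adjusted p = 0.613) at 5 weeks and 0.60 (SE 0.282, adjusted p = 0.243) at 25 weeks. For Id3 the SE was 0.140.

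Id1 and Id3 varied together from mouse to mouse. Over the 32 libraries the Pearson correlation of their log2(TPM + 1) values was 0.796, given as a description, since the libraries share genotype, age and depth differences. The other 27 pairs among the tested members ran from -0.306 to 0.533. Id3 was the second most like gene to Id1 of all those tested, after Klf2, which encodes a flow-responsive transcription factor of endothelium (r = 0.844). For Id3 the most like gene was Ppp1r12c, for a myosin phosphatase subunit (r = 0.855). The longest stretch common to the transcripts of the 2 Id genes was 12 bases, against reads of 150 bases.

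**Figure D4:**
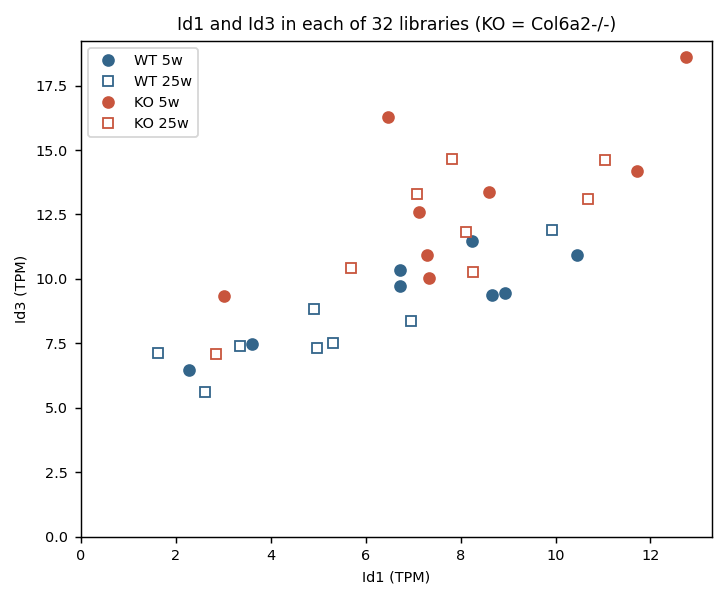
Id1 against Id3 in TPM, 1 point per library, with WT in blue and Col6a2-/- in red, filled at 5 weeks and open at 25 weeks. The libraries lie along a common diagonal (r = 0.796 on the log2 scale), and the highest point is a Col6a2-/- female of 5 weeks at 12.7 TPM for Id1 and 18.6 TPM for Id3.

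For the change of the genotype difference with age, 0 of the 8 tested members passed by limma, with 0 at an unadjusted p under 0.05, against 0.492% of all genes called. The same held for the difference of the genotype effect between the sexes, with 0 called, 0 at an unadjusted p under 0.05 and 0.0156% of all genes called. No other tool was run.

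The wider pathway was followed in 67 further genes, of which 42 were tested. At 5 weeks 11 were higher and 2 lower in Col6a2-/-, with a median difference of 0.20 against 0.15 over all tested genes, and shares of all genes called of 23.2% and 2.14%. At 25 weeks 2 were higher, against 4.47% of all genes, with a median of 0.16 against 0.082. For the change of the genotype difference with age 0 of 42 were called, on TPM and under each other scaling run, against 0.492% of all genes on TPM. Median-of-ratios scaling gave 5 higher and 3 lower at 5 weeks and 2 higher and 3 lower at 25 weeks, where Hjv was among the lower (-0.25, limma adjusted p = 0.0385). Quantile normalization gave 6 higher and 4 lower at 5 weeks and the same counts as TPM at 25 weeks. Counts over all genes also changed with these scalings, as given further on, so the shares on TPM do not serve for them. Of 10 further ligands (among them Bmp3, Bmp7 and Gdf6) none passed the filter on low values, and Bmp8b, Bmp10 and Gdf2 were listed at 0 in every library. In the fit without a filter, made for them after the data were seen, 1 was higher and 1 lower in Col6a2-/- at 5 weeks, against 11.2% of genes called. Gdf6, a close relative of Gdf5 named after its values were seen, was the higher one. It ran from 0 to 0.0432 TPM in WT and from 0.105 to 0.398 TPM in Col6a2-/- mice of 5 weeks, without overlap (as 0.953% of genes above 0 did), and from 0 to 0.0490 and 0 to 0.104 TPM at 25 weeks, with overlap. Its difference was 0.33 at 5 weeks (SE 0.0269, limma adjusted p = 4.7e-09) and 0.055 at 25 weeks (adjusted p = 0.426), and the change of that difference with age was -0.28 (SE 0.0380, adjusted p = 0.00014). Bmp7, likewise named afterwards, was the lower one (-0.17, limma adjusted p = 0.0332), at 0.196 to 0.511 TPM in WT and 0.0426 to 0.309 TPM in Col6a2-/-. At 25 weeks the Bmp7 difference was 0.0044 and did not pass. Nor did the change of its genotype difference with age (0.18, SE 0.0739, limma adjusted p = 0.667).

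Among 10 further receptors and co-receptors, 2 were higher and 2 lower at 5 weeks. Acvrl1, the endothelial type I receptor ALK1, rose from 3.84 ± 0.679 to 5.80 ± 1.12 TPM (0.48, limma adjusted p = 0.00373), and its co-receptor endoglin, Eng, from 4.93 ± 0.660 to 6.92 ± 1.41 TPM (0.40, adjusted p = 0.00310), with n = 8 per mean. The BMP co-receptor hemojuvelin, Hjv, was the highest of the list and fell from 99.5 ± 13 to 76.4 ± 16.4 TPM (-0.39, limma adjusted p = 0.0124). Acvr2b, a type II receptor shared with activins and myostatin, fell from 2.18 ± 0.498 to 1.39 ± 0.499 TPM (-0.42, adjusted p = 0.0171). Acvr2b was named after its values were seen. Under median-of-ratios scaling the call of Eng was lost (0.22, adjusted p = 0.0586) and those of Acvrl1, Hjv and Acvr2b were kept. With age, 1 of these 10 rose and 2 fell in WT, and 2 rose and 0 fell in Col6a2-/-. With scaling that left out mitochondrial and Rn7s genes 0 fell in WT. Bmpr1b rose in WT (0.36, limma adjusted p = 0.00553) and in Col6a2-/- (0.38, adjusted p = 0.00245).

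Of 10 tested secreted antagonists and modulators, 5 were higher at 5 weeks, and 2 under median-of-ratios scaling or quantile normalization. Fstl1, a secreted follistatin-like protein that can bind BMPs, rose from 49.5 ± 17.3 to 90.6 ± 33.5 TPM at 5 weeks (0.83, limma adjusted p = 0.000441) and from 17.9 ± 5.59 to 31.9 ± 5.43 TPM at 25 weeks (0.84, adjusted p = 0.00294), with n = 8 per mean. Chrd, the antagonist chordin, rose from 0.837 ± 0.227 to 1.33 ± 0.249 TPM at 5 weeks (0.35, adjusted p = 0.00267). Bmp1, a protease that cleaves chordin and procollagens and is not itself a BMP ligand, rose by 0.39 (adjusted p = 0.0240). Nbl1, a DAN-family antagonist named after its values were seen, rose by 0.49 (limma adjusted p = 0.0212) at 5 weeks and by 0.71 (adjusted p = 0.00815) at 25 weeks. The fifth was Bmper (0.34, adjusted p = 0.0169), likewise named afterwards, which was also the gene most like Gdf10 (r = 0.749) and, like it, higher in males (0.33, adjusted p = 0.00755). Under median-of-ratios scaling Fstl1 and Chrd kept their calls at 5 weeks (0.63 and 0.23), while Bmp1, Nbl1 and Bmper lost theirs.

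Among 9 tested further target genes, 3 were higher at 5 weeks. Id2, the third Id gene of the pathway, rose from 2.05 ± 0.570 to 4.93 ± 1.92 TPM (0.91, limma adjusted p = 0.00118), and stood at 1.96 ± 0.887 and 2.49 ± 1.17 TPM at 25 weeks (0.23, adjusted p = 0.557), n = 8 each. Fbxo30, the muscle ubiquitin ligase MUSA1, which BMP signalling is known to restrain, rose from 3.89 ± 0.554 to 5.87 ± 1.26 TPM (0.48, adjusted p = 0.000166). Hes1, a repressor better known as a Notch target and named after its values were seen, rose by 0.41 (adjusted p = 0.0267). Of the 3 E proteins that Id proteins bind, Tcf4 rose by 0.31 (limma adjusted p = 0.0443). Id2 and Fbxo30 kept their calls under median-of-ratios scaling (0.75 and 0.30), and Hes1 and Tcf4 lost theirs. Of the 13 calls at 5 weeks, 5 were lost in some fits that left out 1 library, each of them without Col6a2-/- female replicate 2 of 5 weeks (limma adjusted p = 0.0755 for Bmp1, 0.0599 for Nbl1, 0.0501 for Bmper, 0.0852 for Hes1 and 0.133 for Tcf4). The call of Bmp1 was also lost without WT female 1, WT male 2 or Col6a2-/- males 1 or 3, that of Nbl1 without Col6a2-/- male 1, and that of Hes1 without WT female 3, WT male 3, Col6a2-/- female 3 or Col6a2-/- male 3, all of 5 weeks. That of Tcf4 was lost in 11 of the 32 fits.

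**Figure D5:**
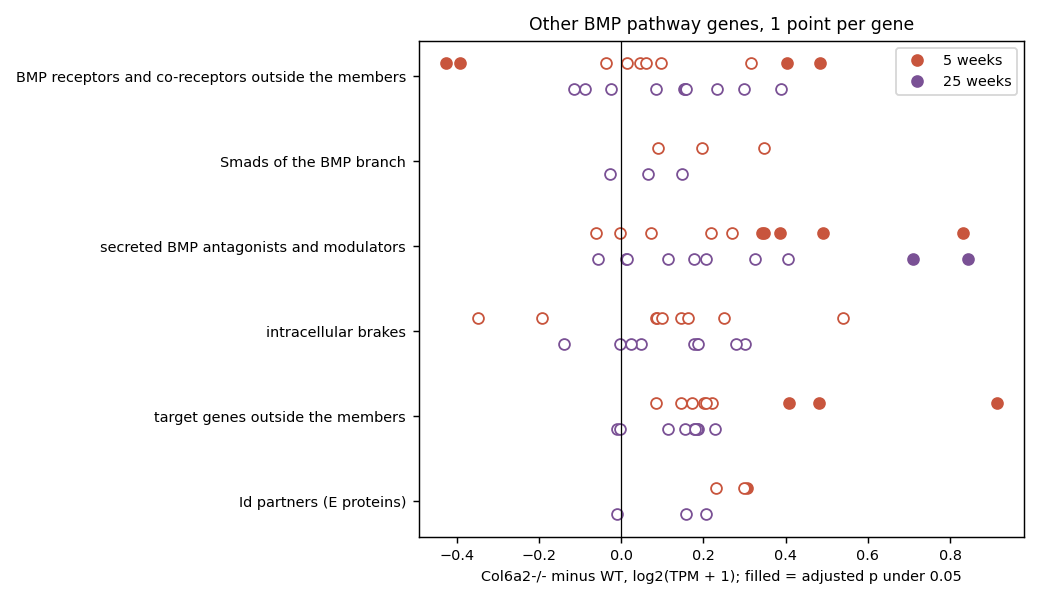
Genotype difference in log2(TPM + 1) (horizontal axis) of the tested pathway genes outside the members, 1 point per gene, by list (rows), in red at 5 weeks and purple at 25 weeks, filled where the adjusted p was under 0.05. Filled points are 13 at 5 weeks, 2 of them on the lower side, and 2 at 25 weeks, both among secreted modulators.

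Age changes of the wider pathway depended on the scaling. In WT mice 2 of 42 genes rose and 9 fell, against 4.47% and 15.3% of all genes, and in Col6a2-/- mice 4 rose and 16 fell, against 5.41% and 28.8%. With scaling that left out mitochondrial and Rn7s genes, 3 rose and 3 fell in WT and 4 rose and 15 fell in Col6a2-/-. Median-of-ratios gave 5 and 10 in WT and 9 and 12 in Col6a2-/-, and quantile normalization 5 and 9, and 9 and 13. The shares above are for TPM. Counts over all genes also changed with the scaling, as given further on, so these counts cannot be set against those shares. Fstl1 fell by 1.40 in WT and by 1.39 in Col6a2-/- (limma adjusted p = 3.1e-07 and 1.8e-07), and Bmp1 by 0.81 and 0.87 (3.2e-05 and 5.0e-06). Crim1, a transmembrane BMP-binding protein, rose by 0.65 and 0.60 (7.6e-07 and 1.3e-06). In Col6a2-/- mice Chrd fell by 0.42 (adjusted p = 0.000203), Id2 by 0.76 (0.00350), Fbxo30 by 0.32 (0.00468), the signal carrier Smad1 by 0.42 (0.00297) and the Notch-linked target Heyl by 0.45 (0.00107). Of 9 tested intracellular brakes 1 rose and 2 fell in Col6a2-/-, with 3 and 1 under median-of-ratios scaling and 4 and 2 under quantile normalization. Smad7, an inhibitory Smad that is itself a target of the pathway, rose by 0.20 in Col6a2-/- (SE 0.0658, limma adjusted p = 0.0190), and its change in WT was 0.16 (adjusted p = 0.0827). The call in Col6a2-/- was lost without female replicate 3 of 25 weeks (0.17, adjusted p = 0.0524). Fkbp1a, whose product holds type I receptors inactive, fell by 0.88 in Col6a2-/- (limma adjusted p = 0.00168), and Ski, a Smad co-repressor, fell by 0.39 in WT (0.0114) and by 0.34 in Col6a2-/- (0.0181). Of the E proteins, Tcf12 fell by 0.44 in WT (0.0212) and by 0.58 in Col6a2-/- (0.00162), and Tcf3 by 0.38 (0.00560) and Tcf4 by 0.33 (0.0238) in Col6a2-/-, the last not kept under median-of-ratios (0.0930) or without mitochondrial and Rn7s genes (0.0617), nor without any of 5 libraries (Col6a2-/- female 2 and males 1 and 3 of 5 weeks, female 2 and male 4 of 25 weeks; 0.0526 to 0.0745). The target Hey1 fell by 0.43 in WT (0.0174) and by 0.46 in Col6a2-/- (0.00626). Several of these calls were not kept. With scaling that left out mitochondrial and Rn7s genes, the WT calls of Ski (limma adjusted p = 0.0531), Hey1 (0.0651) and Tcf12 (0.0864) were lost. In Col6a2-/-, median-of-ratios ended the calls of Ski (0.0658), Fbxo30 (0.0981) and Hey1 (0.0510), and quantile normalization those of Fbxo30 (0.0908) and Hey1 (0.0874), with that of Hey1 in WT (0.0795). Tcf12 in WT also missed the threshold without a filter (0.0506), on coverage (0.0839), and without WT female replicate 4 (0.0540) or WT male replicate 3 (0.0634) of 25 weeks. Ski in Col6a2-/- missed it without female replicate 2 (0.0559) or male replicate 1 (0.0570) of 5 weeks.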

How the data were processed

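RNA-seq libraries of 32 quadriceps samples (150-base paired reads, TruSeq, RIN of at least 8) were analysed from the authors' gene tables. Per the file headers, the deposited tables give coverage (a signal, reads per base), FPKM and TPM per gene. Per the submitters' processing notes the tools were FastQC, MultiQC, Trimmomatic, HISAT2, SAMtools and StringTie, with builds GRCm38 and mm10; their versions, the annotation and the strand setting are not given in the sources used here. Without strand, reads of overlapping genes cannot be separated: Bmp4, Bmp5, Bmp6, Gdf5, Bmpr1a and Bmpr2 overlap other gene models.

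TPM was summed per gene ID and taken as log2(TPM + 1). Genes at 1 TPM or more in at least 4 libraries (12817) were fitted with limma 3.58.1 (R 4.3.3) as 8 group means over all 32 libraries, with a variance trend. Sexes were weighted equally, and Benjamini-Hochberg adjusted p under 0.05 was called. There were 7 comparisons: genotype at each age, age in each genotype, their difference, sex, and genotype by sex. Sex and genotype by sex were taken as means over both ages. Gdf5 and Bmp2 were fitted without the filter. The fit was tested on simulated data. Alternatives were other pseudocounts, filters, scalings, FPKM, coverage, array weights, a replicate block and leaving out each library. The coverage scale, and the fits of Gdf5 and Bmp2 with both settings or a left-out library, and those of the further ligands without a filter, were chosen after seeing the data.

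All 10 members are named; of each pathway list, up to 4 called genes with the smallest adjusted p are named, and exceptions are marked. One gene of the marker lists is not reported here. For each tested member the 2 tested genes with the highest Pearson r were taken as most like it. The members and lists were chosen with earlier results of these data known. Depth is known only as a relative scale, so no counting interval is given.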

Additional observations from a re-analysis of the deposited data

Results flagged for a closer look

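Among 80 sets of 4 mice (10 members in 8 groups), 8 held a mouse far from the other 3 by Dixon's test at the 95% level. Of these 8, 2 were of Gdf5 with the other 3 mice listed at 0, where any value above 0 stands apart. Without such sets 6 of 78 remained, and chance gives about 1 in 20, or 3.9. Bmp2 stood at 0.423 TPM in WT female replicate 3 of 5 weeks, where the others were at 0.275 to 0.286. Bmp5 stood at 4.30 TPM in WT female replicate 4 of 25 weeks, below 4.83 to 4.86 in the others, and at 7.30 TPM in Col6a2-/- male replicate 1 of 25 weeks, above 4.40 to 4.74. Gdf5 stood at 0.0267 TPM in WT female replicate 3 of 5 weeks and at 0.0404 TPM in Col6a2-/- male replicate 1 of 25 weeks, which are these 2 sets. Bmpr1a reached 27.3 TPM in Col6a2-/- female replicate 2 of 5 weeks, where the others were at 15.2 to 15.8. Id1 reached 12.7 TPM in Col6a2-/- female replicate 3 of 5 weeks, above 6.46 to 7.34. Id3 reached 11.9 TPM in WT female replicate 3 of 25 weeks, above 7.14 to 7.51.

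The genotype difference of Gdf5 changed with age by -0.46 on the log2(TPM + 1) scale, the one member for which the difference between the ages passed its own test (limma adjusted p = 4.2e-08 without a filter).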

How the results depend on the processing

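No called result reversed its direction under any alternative run. For genotype at 5 weeks the count of called members was 1, and 0 with array weights; leaving out 1 library gave 0 to 2. With median-of-ratios scaling and quantile normalization the count stayed at 1 but the called member was Bmpr1a, lower, and not Id3; without a filter it was Gdf5. At 25 weeks the count of 1 became 0 without a filter (with either pseudocount), with quantile normalization, and with scaling that left out mitochondrial and Rn7s genes. With median-of-ratios scaling it stayed at 1, but the called member was Bmpr1a, lower, and not Id3. Leaving out 1 library gave 0 to 1. For genotype by age the 0 became 1 (Gdf5) without a filter, with either pseudocount. For age in WT the 1 became 0 at a minimum of 5 TPM, which Gdf10 does not reach, and 2 with array weights; quantile normalization called Bmp6 in place of Gdf10 (-0.25, adjusted p = 0.0507). For age in Col6a2-/- the 1 (Bmp6) became 2 with a pseudocount of 0.1, array weights or the replicate block (Bmp6 and Gdf10), and 2 on coverage (Bmp4 at -0.33, adjusted p = 0.0178, and Gdf10, both lower, while Bmp6 could not be tested). Without a filter Bmp6 lost its call (0.0604) and Gdf5 was the 1 called. The count became 0 at a minimum of 5 TPM; leaving out 1 library gave 0 to 3. For sex the 1 became 0 at 5 TPM. Genotype by sex stayed at 0.

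Over all genes at 5 weeks, 2979 were higher and 274 lower; with median-of-ratios scaling 1490 and 1622, and with quantile normalization 1413 and 1672, as the median difference moved from 0.15 to -0.012 and -0.025. At 25 weeks 573 and 30 became 712 and 672 with median-of-ratios and 483 and 365 with quantile normalization; array weights called 1967 genes against 603. For age in WT, 573 higher and 1963 lower became 1866 and 1852 with median-of-ratios, 1777 and 1680 with quantile normalization, 1133 and 1098 without mitochondrial and Rn7s genes and 797 and 1643 with FPKM, and in Col6a2-/- 694 and 3695 became 2250 and 2202 with median-of-ratios and 2419 and 2128 with quantile normalization. For sex 240 higher and 151 lower became 480 and 90 without mitochondrial and Rn7s genes and 206 and 260 with FPKM. Total counts moved by more than 1.5 times as well. Genotype by age (63) gave 115 without a filter, 127 with median-of-ratios, 163 with quantile normalization and 241 with array weights. Sex (391) gave 803, 828 and 925 with the same 3 settings, and age in WT (2536) gave 4166 with array weights. Genotype at 25 weeks gave 343 without a filter, and genotype by sex (2) gave 5 without a filter and 0 with array weights (206 at an unadjusted p under 0.05 in the reported fit). At 5 TPM the counts were 1553, 344, 32, 1441, 2263 and 258 for genotype at 5 and 25 weeks, genotype by age, age in WT and Col6a2-/-, and sex. Leaving out 1 library moved genotype at 25 weeks to between 270 (Col6a2-/- male 1 of 25 weeks) and 983 (Col6a2-/- female 2 of 5 weeks), genotype by age to 229 (Col6a2-/- female 4 of 5 weeks) and sex to 693 (Col6a2-/- female 2 of 5 weeks).

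The reported fit did not pair the samples by replicate number. Residuals of same-numbered libraries correlated at 0.031 on average (35 of 112 pairs over 0.1). Those of different-numbered libraries correlated at -0.010 on average (65 of 336 pairs over 0.1). Of 32 libraries 10 correlated best with their own number. With the number as a replicate block the counts of called members were 1 and 1 for genotype at 5 and 25 weeks, 0 for genotype by age, 1 and 2 for age in WT and Col6a2-/-, 1 for sex and 0 for genotype by sex, the added call being Gdf10 in Col6a2-/- (-0.22, adjusted p = 0.0452). Coverage of Gdf5, Bmp2 and Bmp6 was under 6 reads per base in every library, which limits their values. For Bmp6 the source of the low coverage was not tested. Gdf10 and Bmp4 reached down to 3.29 and 4.74 reads per base in their lowest libraries.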
